A study of Mus musculus with 15 samples.

Results

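Neuropeptide precursors and granins make up a group of 37 genes, chosen by name as 31 precursors or binding proteins of brain peptides and 6 granins or granin-like proteins. Each name matched 1 row of the count table, giving 37 of the 27179 gene IDs in the whole table. The list was drawn up from gene function, in 5 role groups, with earlier results of these data known. Of the 37 genes, 32 passed the filter on low counts and were tested, and Oxt, Hcrt, Pmch, Ghrh and Ucn did not pass.

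The series compared brains of PLP-α-synuclein mice (TG), homozygous for a human α-synuclein transgene, with those of non-transgenic C57Bl/6 mice (WT) matched for age and sex. All were 12 months old, and there were 4 TG female, 3 TG male, 4 WT female and 4 WT male libraries of bulk tissue labelled as brain hemisphere. The PLP promoter that drives the transgene works in oligodendrocytes, which form myelin, so the peptide-releasing neurons are not the cells it targets. Whether each library came from a separate animal is not stated, so the spread behind each p-value is that between libraries, which may be technical. Library titles share a number within each group of genotype and sex and differ by a suffix. What the shared number stands for is not stated, and it cannot be separated from genotype and sex. How many animals stand behind each group is thus not known. Expression of the transgene was not analysed here.

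Neuropeptides are cut from larger precursors inside dense-core vesicles and are released on strong neuronal activity. Granins are acidic proteins that help to form these vesicles and that are themselves cut into peptides. Each peptide marks particular neurons, so a precursor can be abundant in one brain region and nearly silent in its neighbour, whereas most neurons with dense-core vesicles contain granins.

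The 15 libraries held between 15170772 and 35850998 counts (median 17635366), and 3 counts corresponded to between 0.0837 and 0.193 CPM, the count scaled to a library of fixed size. Levels below are CPM on library sizes scaled with TMM, a scaling that balances library composition. The libraries did not hold the same tissue in equal measure. Clustering on 6 lists of regional marker genes, none of which holds a peptide or granin of this group, gave 4 classes named here for their leading markers. The hindbrain class held TG female 1, TG female 4, WT female 3 and WT male 3, with summed hindbrain markers at 487 to 542 CPM, against at most 26.3 CPM in every other library. The cortex class held TG male 4, WT female 2 and WT male 4, with summed markers of cortical excitatory neurons at 6871 to 8081 CPM. The olfactory class held TG female 2, TG male 1, TG male 3, WT female 1, WT female 4, WT male 1 and WT male 2, with summed olfactory bulb markers at 458 to 1244 CPM, against at most 88.1 CPM in every other library. The cerebellum class was the single library TG female 3. These classes come from expression in the same libraries, so differences between them are described with no test, and a class can be a region or a mixture of regions. In bulk tissue, fewer cells of a type and less RNA per cell cannot be told apart.

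**Figure D1:**
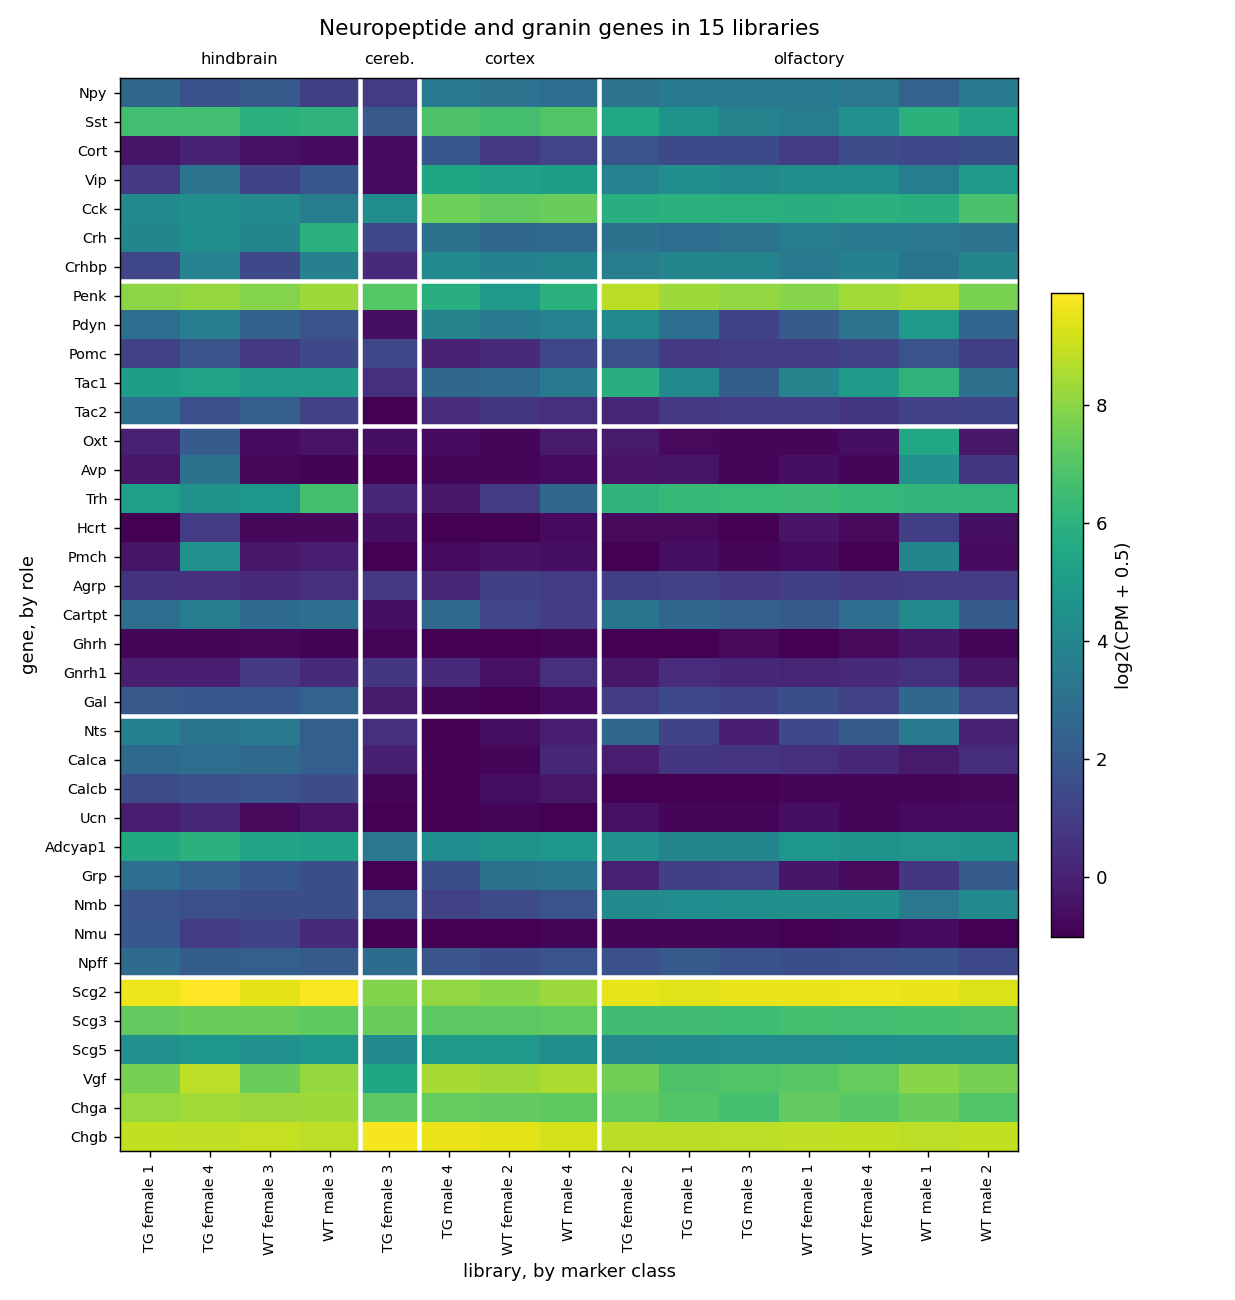
Levels of the 37 genes (rows, by role) in the 15 libraries (columns, by class, TG left of WT within a class), coloured by log2 of CPM plus 0.5. Many precursors change colour from class to class, and Oxt, Avp and Pmch stand out in TG female 4 and WT male 1. Most granins at the bottom are bright, with Scg5 the dimmest of them.

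Per kilobase of exon, most granins and a few precursors were the most abundant of the 37 genes. Averaged over the 15 libraries, Scg2 (secretogranin II) had 250 CPM per kb and Chgb (chromogranin B) 192 CPM per kb. Penk, the enkephalin precursor, followed with 146 CPM per kb, and Sst, the somatostatin precursor, with 81.6 CPM per kb. Vgf, a granin-like protein induced by growth factors, had 75.3 CPM per kb, and Chga (chromogranin A) had 68.0 CPM per kb. The granin-like genes Scg3 and Scg5 had 46.8 and 13.7 CPM per kb, both below the precursor gene Cck with 53.8 CPM per kb. At the other end, Ghrh, which encodes growth hormone-releasing hormone, averaged 0.0929 CPM per kb. Its level was at most 0.297 CPM in every library. Lengths are those of all annotated exons joined, so a gene of which little is transcribed would be understated.

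Some of these genes share their position with another annotated gene, and whether the counting used strand is not given in the sources used here. In the GENCODE annotation, gene models of 8 of the 37 overlap another gene. For Nmb the partner is Sec11a and for Npff it is Gm28047, both on the same strand. The GENCODE model of Agrp ends at 105637393 on chromosome 8 and spans several genes, Ctcf among them, while its RefSeq model ends at 105579845. Penk, Pmch, Grp, Nmu and Scg3 have a partner on the opposite strand. Which gene models were counted is not given in the sources used here. Where the counted models overlap in the same way, reads of these genes and of their partners cannot be told apart. Calca and Calcb are paralogs that share sequence, so the split of reads between them is uncertain.

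The precursors of the magnocellular and lateral hypothalamus stood out in only 2 of the 15 libraries, TG female 4 and WT male 1. Oxt encodes the precursor of oxytocin and had 67 counts in TG female 4 and 747 counts in WT male 1, against 1 to 8 counts in each of the other 13 libraries. Avp, the vasopressin precursor, had 138 and 373 counts in these libraries, against 0 to 26 counts in the other 13. Pmch, the precursor of melanin-concentrating hormone, had 388 counts in TG female 4 and 262 counts in WT male 1, against 0 to 12 counts elsewhere. Hcrt, the orexin precursor of the lateral hypothalamus, had 25 and 26 counts in the same pair, against 0 to 4 counts elsewhere. All 4 precursors were therefore higher in both of these libraries than in any other, although the proportions differed, with Oxt leading in WT male 1 and Pmch in TG female 4. In CPM, Oxt had 3.81 in TG female 4 and 44.4 in WT male 1, while Pmch had 22.0 and 15.6 CPM in the same libraries.

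Cartpt and Pomc, precursors of appetite-regulating peptides of the arcuate nucleus and other sites, were also highest in the same libraries, Pomc by a small margin. Cartpt had 11.6 CPM in TG female 4 and 17.3 CPM in WT male 1, against 0.178 to 8.92 CPM in the other 13. Pomc had 3.01 and 2.97 CPM there, against 0.574 to 2.69 CPM elsewhere. These values rest on 53 and 50 counts, while TG female 2 and WT male 3 also had 53 counts each, so the order of Pomc is not firm. With Avp, this made 3 of the 32 tested genes higher in both libraries than in every other, or 9.38% of them, against 0.501% of all 17151 genes tested. Avp passed the filter only through these libraries, and among genes that passed without them the count was Cartpt and Pomc, 2 of 31 or 6.45%, against 0.47% of all such genes. The 3 untested genes Oxt, Hcrt and Pmch had the same order. No tested gene of the group was lower in both than in every other library, against 0.414% of all genes.

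For the shares above, these 2 libraries were picked by a list of 8 transcription factors of the hypothalamus. Their mean log2 level of the list was more than 1 above the average of all libraries. High values of the list in this pair therefore follow from the choice and are no separate evidence. The split by this list was not among the planned comparisons, so the shares describe the pair and are no test. The list summed to 12.3 CPM in TG female 4 and 26.2 CPM in WT male 1, against 0.233 to 3.04 CPM in the other 13 libraries. Of the 8, Sim1, Nkx2-1 and Fezf1 were higher in both libraries than in every other. The rest were not, and Lhx8 was at 0 in TG female 4. The part of tissue content in these levels was not tested. 1 of the 2 libraries is TG and the other WT, and they fall in different classes, the hindbrain and the olfactory class. A list of 7 pituitary genes summed to 2.67 CPM in TG female 4 and 2.08 CPM in WT male 1, and to at most 8.57 CPM, in WT female 3. Whether pituitary tissue was present was not tested.

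**Figure D2:**
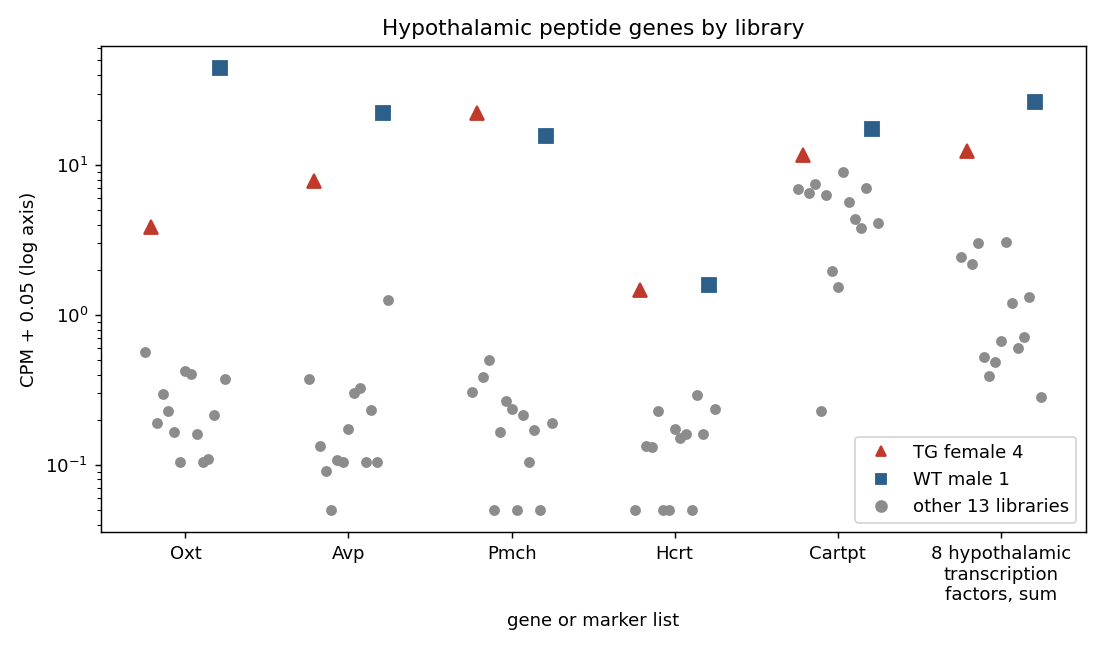
Levels of 5 hypothalamic precursors and the sum of 8 hypothalamic transcription factors (horizontal axis) as CPM plus 0.05 on a log axis, 1 point per library, with TG female 4 as a red triangle, WT male 1 as a blue square and the other 13 libraries in grey. TG female 4 and WT male 1 lie above all grey points in every column, which for the transcription factors follows from how the pair was chosen.

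Oxt and Avp lie next to each other on chromosome 2 and are read toward each other from opposite strands. Their promoters are shown because these neighbours were high in the same 2 libraries and yet in different proportion. Both windows run from 250 bases before to 50 bases after the RefSeq start on GRCm38.p6, read 5′ to 3′ on the strand of the gene. They are chr2:130575919-130576218 on the plus strand for Oxt and chr2:130582539-130582838 on the minus strand for Avp. Neither window holds the cAMP response element TGACGTCA searched for below.
Oxt: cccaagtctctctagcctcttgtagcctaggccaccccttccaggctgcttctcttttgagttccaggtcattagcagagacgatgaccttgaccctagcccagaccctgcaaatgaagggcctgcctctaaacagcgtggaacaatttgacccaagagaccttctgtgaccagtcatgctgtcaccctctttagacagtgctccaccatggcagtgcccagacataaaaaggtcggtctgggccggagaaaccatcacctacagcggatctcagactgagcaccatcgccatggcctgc
Avp: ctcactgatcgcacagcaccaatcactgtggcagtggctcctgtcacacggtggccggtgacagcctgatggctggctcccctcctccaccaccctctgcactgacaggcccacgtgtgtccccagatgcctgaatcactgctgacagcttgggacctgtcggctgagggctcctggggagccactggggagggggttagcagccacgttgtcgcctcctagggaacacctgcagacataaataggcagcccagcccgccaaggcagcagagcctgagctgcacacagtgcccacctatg

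Other hypothalamic precursors were not limited to those 2 libraries. Trh encodes the precursor of thyrotropin-releasing hormone and ranged from 67.0 to 85.0 CPM over the 7 olfactory libraries, with a median of 76.1 CPM. In the hindbrain class it had 34.5 and 23.9 CPM in TG female 1 and TG female 4, against 26.8 and 103 CPM in WT female 3 and WT male 3. It had 0.344 CPM in TG male 4, against 1.36 and 5.86 CPM in WT female 2 and WT male 4 of the cortex class, and 0.654 CPM in the cerebellum library TG female 3. Trh was thus steady among olfactory libraries, low in cortex and cerebellum, and split in the hindbrain class by the single library WT male 3. Gal, the galanin precursor, had 3.46 to 4.998 CPM in the hindbrain class, 1.37 to 5.46 CPM in the olfactory class and at most 0.123 CPM in the cortex class. Agrp and Gnrh1, which act in feeding and in reproduction, stayed between 0.218 and 1.64 CPM in every library.

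Of the peptides of interneurons, Cck, Vip and Sst were highest in the cortex class, while the class medians of Npy, Cort and Crh were higher elsewhere. Cck, the cholecystokinin precursor, which pyramidal cells also express, had 178 CPM in TG male 4 and 170 and 156 CPM in WT male 4 and WT female 2, against 11.4 to 108 CPM in the other 12 libraries. Vip, made by a class of interneurons that inhibit other interneurons, had 42.9 CPM in TG male 4 and 33.3 and 36.9 CPM in WT male 4 and WT female 2, against 0.119 to 28.7 CPM elsewhere. Sst, made by interneurons that target dendrites, had 115 CPM in TG male 4 and 121 and 101 CPM in the WT libraries, against 3.63 to 97.0 CPM elsewhere. These 3 genes were the ones for which every cortex library lay above every other library, 9.38% of the 32 tested genes against 9.4% of all genes, so the share is that of genes in general. In the opposite direction, Penk, Gal and Nts were lower in every cortex library than in every other library, also 9.38%, against 6.71% of all genes. Grp, the precursor of gastrin-releasing peptide, had 2.58 CPM in TG male 4, against 8.10 and 9.003 CPM in WT female 2 and WT male 4, and 2.54 to 7.39 CPM in the hindbrain class. It had 0.111 to 3.72 CPM in the olfactory class. Crhbp, the binding protein of corticotropin-releasing hormone, had 17.7 CPM in TG male 4 and 13.4 and 14.7 CPM in the same WT libraries, close to the 8.97 to 15.2 CPM of the olfactory class. Set against the olfactory class alone, 6 genes were higher in every cortex library, 18.8% against 19.5% of all genes, and 6 were lower, against 18.1% of all genes.

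Sst was nearly as high in the hindbrain class as in the cortex class, unlike Vip and Cck. It had 97.0 and 96.2 CPM in TG female 1 and TG female 4, against 60.8 and 66.8 CPM in WT female 3 and WT male 3, and the groups did not overlap. Vip in the same libraries had 1.29 and 8.41 CPM in TG and 1.76 and 3.28 CPM in WT. Cort, which encodes the somatostatin relative cortistatin, had 0.123 to 0.568 CPM in the hindbrain class and 1.31 to 3.33 CPM in the cortex and olfactory classes together. Npy, the neuropeptide Y precursor, had 1.60 to 5.46 CPM in the hindbrain class, 7.28 to 10.5 CPM in the cortex class and 4.93 to 11.1 CPM in the olfactory class. A list of 10 interneuron genes summed to 787 to 1061 CPM in the hindbrain class, 791 to 962 CPM in the cortex class and 2232 to 2885 CPM in the olfactory class. Its members did not run alike. Gad1 had 149 to 186 CPM in the hindbrain class, 257 to 388 CPM in the cortex class and 864 to 1615 CPM in the olfactory class. Lhx6 had 0.363 to 1.42, 28.9 to 35.1 and 2.71 to 39.0 CPM in the same order. The part of interneuron content in the peptide levels was not tested.

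Of the brainstem and sensory peptides, Calca, Calcb, Nmu and Adcyap1 were highest in the hindbrain class, while the highest levels of Nmb, Grp and Npff lay in other classes. Calca, which encodes calcitonin gene-related peptide, had 6.11 and 7.05 CPM in the TG libraries and 6.22 and 4.26 CPM in the WT libraries, against 0 to 1.21 CPM in the other 11. Its relative Calcb had 2.38 to 2.96 CPM in the hindbrain class, against at most 0.308 CPM elsewhere. Nmu, the neuromedin U precursor, had 3.53 and 1.42 CPM in TG and 1.87 and 0.737 CPM in WT, against at most 0.119 CPM, or 2 counts, elsewhere. Adcyap1, the precursor of the peptide PACAP, had 48.1 and 60.9 CPM in TG and 40.5 and 37.6 CPM in WT, against 9.81 to 26.0 CPM elsewhere. Crh, the corticotropin-releasing hormone precursor, had 15.4 and 21.3 CPM in TG and 15.01 and 62.3 CPM in WT, against 2.08 to 11.5 CPM elsewhere, and WT male 3 alone held the high value. Together with Chga, 6 of 32 tested genes lay above all other libraries in every hindbrain library, 18.8% against 12.6% of all genes. Calcb and Nmu passed the filter only through the hindbrain libraries, so their place in this count was fixed by the filter. Among genes that passed without those libraries, the count was 4 of 29, or 13.8%, against 11.7% of all such genes, so the share is close to that of genes in general. None lay below all others, against 11.6% of all genes.

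Several further genes leaned to the hindbrain class with overlap. Nts, the neurotensin precursor, had 13.1 and 8.52 CPM in TG and 10.4 and 4.30 CPM in WT hindbrain libraries, against at most 10.5 CPM elsewhere, the highest being WT male 1. Tac2, the neurokinin B precursor, had 7.33 and 2.61 CPM in TG and 4.35 and 1.68 CPM in WT hindbrain libraries, against 0 to 1.77 CPM elsewhere. Ucn, the urocortin precursor, was near the limit of detection throughout, with 0.112 to 0.682 CPM in the hindbrain class and 0 to 0.203 CPM elsewhere. Set against the olfactory class alone, 9 of 32 genes were higher in every hindbrain library, 28.1% against 24.6% of all genes. Among genes that passed the filter without the hindbrain libraries it was 7 of 29, or 24.1%, against 23.7% of all such genes. Lower in every hindbrain library were 5, namely Cort, Vip, Cck, Agrp and Nmb, 15.6% against 25.5% of all genes. The pattern of WT male 3 differed from that of its class, with the highest Crh and Trh and the lowest Nts and Nmu of the 4.

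In the olfactory class, Nmb was the gene that stood above all other libraries. Nmb encodes neuromedin B, a bombesin-like peptide, and had 17.6, 19.4 and 20.9 CPM in TG female 2, TG male 1 and TG male 3. In WT it had 21.3, 21.7, 9.80 and 17.9 CPM in WT female 1, WT female 4, WT male 1 and WT male 2. Every other library had 1.72 to 3.15 CPM. This was 3.12% of the 32 tested genes, against 4.86% of all genes. Scg3 was the one gene lower in every olfactory library than in every other, against 4.52% of all genes. Penk was also high there, at 204 to 438 CPM, but the hindbrain class had 236 to 317 CPM.

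Tac1 and Pdyn varied more strongly among the 7 olfactory libraries than Penk. Tac1, the substance P precursor, and Pdyn, the dynorphin precursor, mark striatal projection neurons of the direct pathway, while Penk marks those of the indirect pathway. This contrast is not read as one between the pathways. Penk was also highest in TG female 2 and WT male 1, at 438 and 390 CPM. The striatal genes Drd2 and Adora2a ranged over these libraries from 0.714 to 14.8 CPM and from 6.56 to 61.8 CPM. Tac1 had 58.5, 18.1 and 4.12 CPM in TG female 2, TG male 1 and TG male 3, against 14.2, 31.7, 66.9 and 7.50 CPM in WT female 1, WT female 4, WT male 1 and WT male 2. Pdyn had 17.6, 7.45 and 1.81 CPM in the same TG libraries, against 3.85, 8.40, 29.1 and 5.35 CPM in the same WT libraries. For both genes TG female 2 and WT male 1 were highest and TG male 3 was lowest, with genotypes overlapping. A list of 9 striatal genes that holds no peptide summed to 1493, 524 and 209 CPM in the TG libraries, against 506, 836, 1532 and 236 CPM in the WT libraries. The 7 libraries had the same order for that sum and for Tac1, a description with no test over libraries prepared alike. The part of striatal tissue content in these levels was not tested. The standard deviation of log2 CPM over these 7 libraries was 1.49 for Tac1, 1.33 for Pdyn and 0.382 for Penk. Its median was 0.408 over the 32 tested genes and 0.176 over all genes tested, and Chgb had 0.0556.

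**Figure D3:**
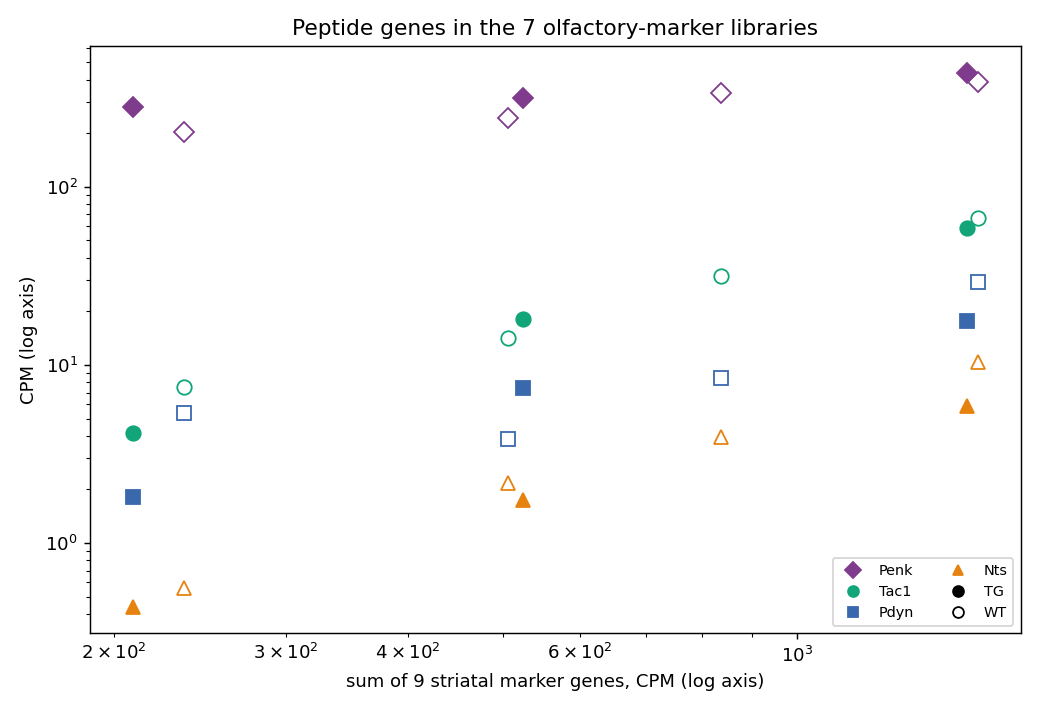
Levels of Tac1, Pdyn, Nts and Penk in the 7 olfactory libraries (vertical axis, CPM) against the summed CPM of 9 striatal marker genes (horizontal axis), both on log axes, with filled symbols for TG and open ones for WT. TG female 2 and WT male 1 lie at the right with the highest values, and the genotypes are intermixed.

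The cerebellum library was often the lowest for genes of this group. TG female 3 was the lowest of the 15 libraries for 15 of the 32 tested genes, 46.9% against 15.9% of all genes. The granins Scg2 and Vgf are among them. So are Avp, with 0 counts there against 1 count in WT male 3, and Cort, with 2 counts against 3 in WT male 3, too few to rank. Sst had 3.63 CPM there against 11.6 to 121 CPM elsewhere, Vip had 0.119 CPM against 1.29 to 42.9 CPM, and Adcyap1 had 9.81 CPM against 14.4 to 60.9 CPM. Scg2 had 228 CPM, against 245 to 948 CPM in the other 14. In contrast, Chgb had 845 CPM, against 432 to 760 CPM elsewhere, and Npff, the precursor of an opioid-modulating peptide, had 6.78 CPM against 2.05 to 6.43 CPM. These were the 2 genes highest in this library, 6.25% of the 32 against 18.2% of all genes. With 1 library the spread within this class is unknown, and no WT library falls in it.

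Apart from Vgf, granins differed less between libraries than most precursors, and their patterns were not alike. Scg2 was low in the cortex class, with 282 CPM in TG male 4 and 304 and 245 CPM in WT male 4 and WT female 2, against 639 to 948 CPM in the hindbrain and olfactory libraries together. Chga was highest in the hindbrain class, with 293 and 332 CPM in TG and 306 and 317 CPM in WT, against 101 to 174 CPM elsewhere. Chgb ran the other way, with 591 to 760 CPM in the cortex class and 432 to 482 CPM in the hindbrain and olfactory classes. Vgf ranged from 42.8 CPM in the cerebellum library to 449 CPM in TG female 4. Scg3, a granin-like protein that binds vesicle membrane, stayed within 90.5 to 171 CPM, and Scg5, the chaperone 7B2 of a prohormone convertase, within 17.0 to 30.0 CPM. The ratio of the highest to the lowest of the 15 libraries was 1.77 for Scg5, 1.89 for Scg3, 1.96 for Chgb, 3.28 for Chga, 4.16 for Scg2 and 10.5 for Vgf. Among precursors it ran from 2.60 for Agrp and 3.31 for Npff to 33.3 for Sst and 75.1 for Tac1, and above that for others.

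**Figure D4:**
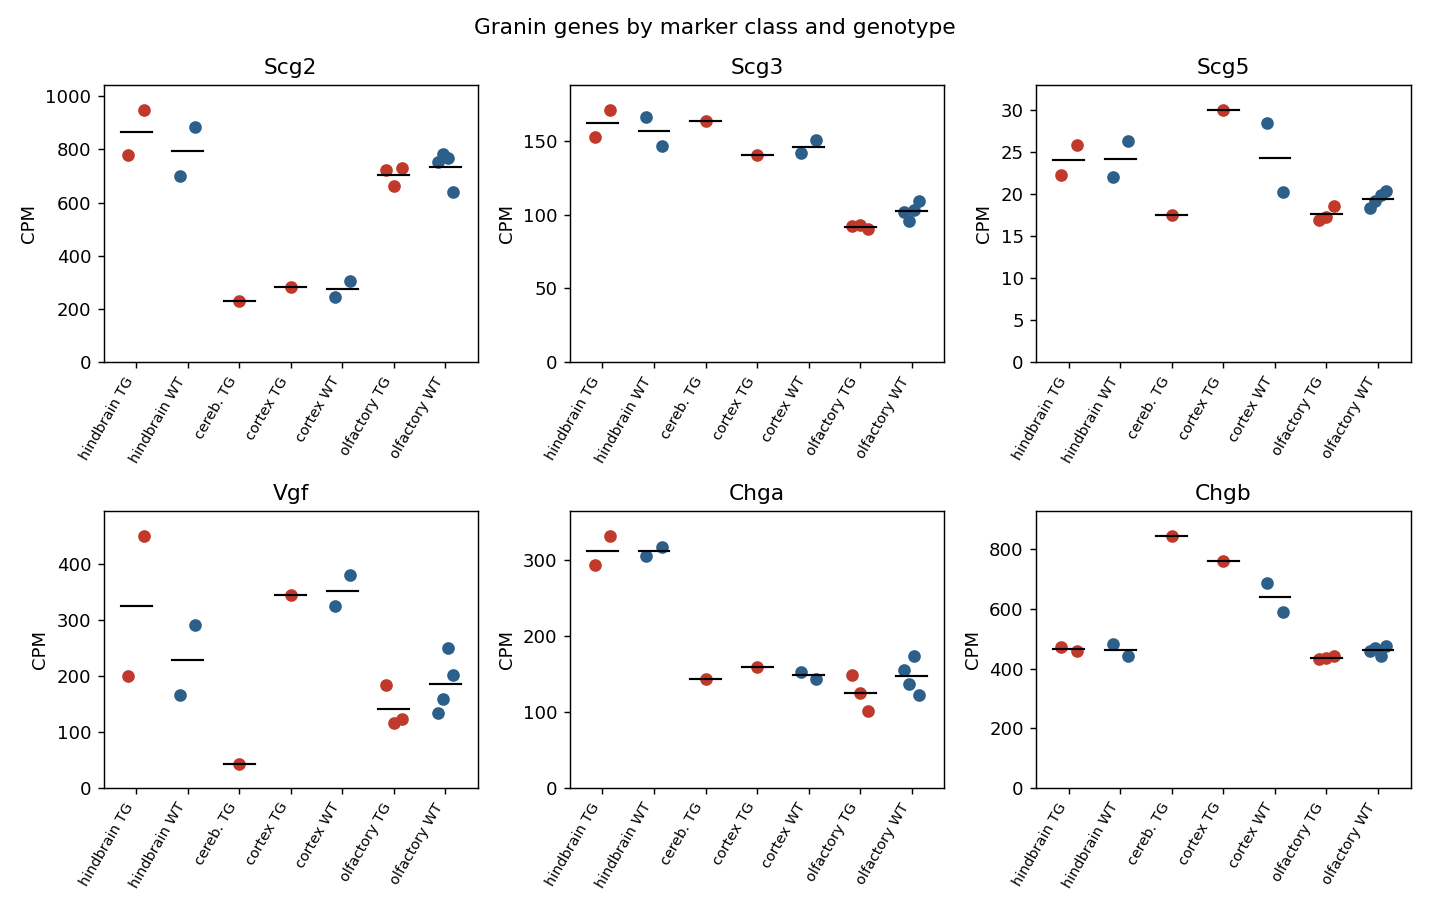
Levels of the 6 granins in CPM (linear axes from 0) for each library, by class with TG (red) left of WT (blue) and a bar at each mean. Chga is highest in the 4 hindbrain libraries, Scg2 is low in cortex and cerebellum, and Chgb is highest in the cerebellum library.

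Promoters of Sst, Scg2 and Chgb are shown because these genes vary differently across classes while all 3 hold the full cAMP response element TGACGTCA, which reads the same on both strands. RefSeq lists 32 promoters for 29 of the 37 genes, and the element was found in 5 of the 32, the other two being those of Cartpt and Ucn. It was present in 1.79% of 32851 mouse promoters of the same length. Its shorter form TGACG, searched on both strands and contained in the full element, was found in 22 of the 32 promoters of these genes and in 20.8% of all promoters. In capitals, the element starts 48 bases before the RefSeq start for Sst (chr16:23890795-23891094, minus strand), 68 before it for Scg2 (chr1:79439977-79440276, minus strand) and 72 before it for Chgb (chr2:132781392-132781691, plus strand), on GRCm38.p6. A match is a description of the letters and no evidence of binding.
Sst: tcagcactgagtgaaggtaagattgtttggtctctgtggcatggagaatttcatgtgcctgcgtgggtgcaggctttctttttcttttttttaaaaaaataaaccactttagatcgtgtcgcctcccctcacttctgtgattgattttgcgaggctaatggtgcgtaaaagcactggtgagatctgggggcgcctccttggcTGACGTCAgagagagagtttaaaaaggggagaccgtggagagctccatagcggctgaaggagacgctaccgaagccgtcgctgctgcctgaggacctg
Scg2: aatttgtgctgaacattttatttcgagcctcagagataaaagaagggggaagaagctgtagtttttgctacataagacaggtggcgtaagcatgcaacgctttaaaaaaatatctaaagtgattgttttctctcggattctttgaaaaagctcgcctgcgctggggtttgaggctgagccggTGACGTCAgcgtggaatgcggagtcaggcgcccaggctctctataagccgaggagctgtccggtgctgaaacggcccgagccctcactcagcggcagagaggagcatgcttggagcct
Chgb: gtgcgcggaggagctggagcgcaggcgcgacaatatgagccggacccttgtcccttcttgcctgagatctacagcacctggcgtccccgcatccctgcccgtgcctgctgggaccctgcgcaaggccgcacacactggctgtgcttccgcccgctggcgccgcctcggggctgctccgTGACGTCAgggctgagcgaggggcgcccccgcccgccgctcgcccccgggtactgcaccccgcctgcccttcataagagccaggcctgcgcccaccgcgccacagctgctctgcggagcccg

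TG and WT were compared to ask whether peptide or granin transcripts differ with the transgene, first over all 15 libraries with sex as a covariate. None of the 32 tested genes was called by the quasi-likelihood test of edgeR, adjusted by Benjamini-Hochberg, at 0.05, against 0.111% of all 17151 genes, and none had an unadjusted p under 0.05, against 1.83% of all genes. DESeq2 and limma-voom called none either. The median log2 difference was -0.09 over the 32 genes, with 10 positive and 22 negative, and 0.00 over all genes. Npff had the smallest p, with a lowest, median and highest value of 2.79, 3.72 and 6.78 CPM in TG and 2.05, 2.75 and 4.21 CPM in WT, a log2 difference of 0.47 ± 0.22 (SE) and an adjusted p of 1.00. The genotypes overlapped for Npff, and its highest value was that of the cerebellum library. Cck and Crh came next, each with a log2 difference of -0.61 and an SE of 0.59 for Cck and 0.60 for Crh. Not a single gene had every TG library above, or below, every WT library, against 0.0875% and 0.0933% of all genes.

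With class as a further term, again none of the 32 genes was called, against 0.496% of all genes. The cerebellum library, alone in its class, adds nothing to a difference fitted with this term. The cortex class adds 1 TG and 2 WT libraries. Unadjusted p-values under 0.05 numbered 2, against 8.4% of all genes, and DESeq2 and limma-voom called none. The median difference over the 32 genes was 0.00, as over all genes. Cort had a log2 difference of 0.57 ± 0.24 (SE) with an adjusted p of 0.534, Npff one of 0.31 ± 0.14 with an adjusted p of 0.562, and Npy one of 0.36 ± 0.22 with an adjusted p of 0.710. Standard errors were smallest for the granins other than Vgf. Log2 differences between TG and WT were 0.01 ± 0.08 for Scg2, -0.07 ± 0.05 for Scg3, -0.01 ± 0.09 for Scg5, -0.04 ± 0.25 for Vgf, -0.09 ± 0.10 for Chga and 0.02 ± 0.06 for Chgb.

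**Figure D5:**
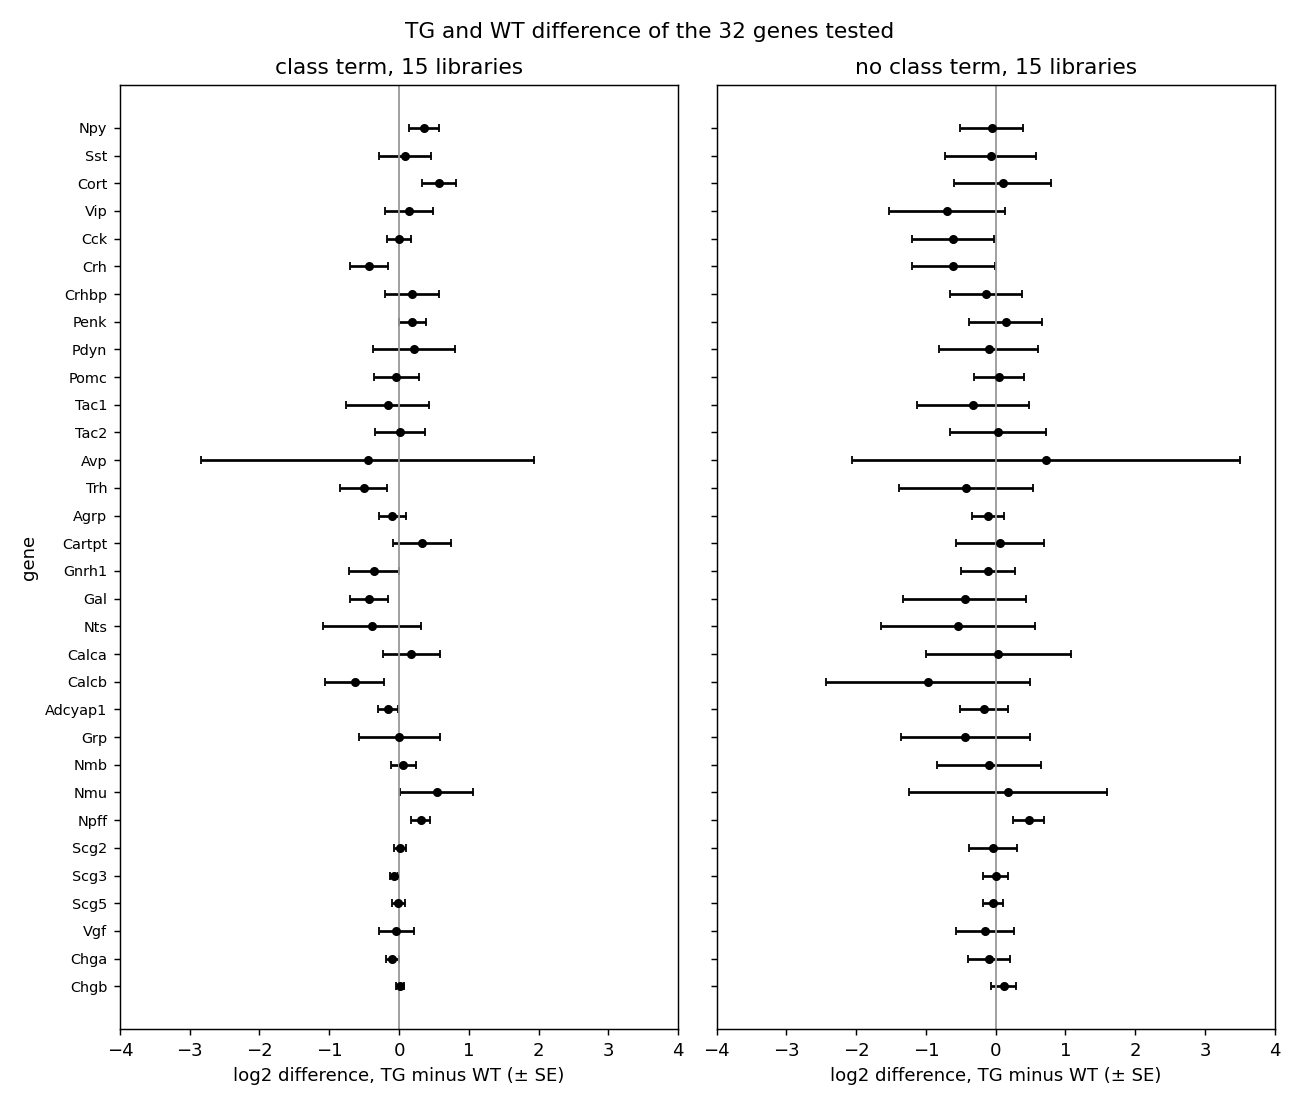
Log2 difference between TG and WT with its standard error for each of the 32 tested genes, with (left) and without (right) the class term. Error bars are shorter with the class term for most genes and no gene passes the adjusted threshold in either panel.

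Within the olfactory class, 3 TG libraries were set against 4 WT libraries. None of the 32 genes was called by edgeR's quasi-likelihood test after adjustment, against 0.245% of all genes. An unadjusted p under 0.05 was found for 5, against 7.75% of all genes, and DESeq2 and limma-voom called none. The group median was -0.17, with 9 positive and 23 negative, against 0.01 over all genes. Adcyap1 had 22.4, 14.4 and 15.3 CPM in TG female 2, TG male 1 and TG male 3, against 25.7, 22.9, 25.1 and 22.7 CPM in WT female 1, WT female 4, WT male 1 and WT male 2. Every TG value lay below every WT value, by little for TG female 2, and the log2 difference was -0.46 ± 0.14 (SE) with an adjusted p of 0.422. Scg3 had 92.6, 93.0 and 90.5 CPM in TG, against 102, 95.5, 103 and 110 CPM in WT in the same order, with a log2 difference of -0.16 ± 0.07. Calcb had 0 counts in all 3 TG libraries and 1 or 2 counts in each WT library, so no fold is given. Avp in WT was carried by WT male 1, at 22.1 CPM against 0.0553 to 1.21 CPM in the other WT libraries and 0.0549 to 0.274 CPM in TG.

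For 4 of the 32 tested genes, Calcb, Adcyap1, Scg3 and Chgb, every olfactory TG library lay below every olfactory WT library, 12.5% against 3.02% of all genes. With its 0 to 2 counts Calcb cannot be compared here, and among genes above 3 counts that passed the filter without the WT libraries of this class the count was 3 of 29, or 10.3%, against 2.99% of all such genes. Chgb had 432, 435 and 441 CPM in TG, against 460, 467, 442 and 477 CPM in WT, and TG male 3 and WT male 1 were nearly level. No gene of the group lay wholly above WT, against 3.66% of all genes. All 6 granins had negative log2 differences in this class, from -0.38 to -0.07. None of them passed the test.

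Within the hindbrain class, TG female 1 and TG female 4 were set against WT female 3 and WT male 3, so that both TG libraries were female and 1 of them was the one with hypothalamic peptides. None of the 32 genes was called, against 0.07% of all genes, while 3 had an unadjusted p under 0.05, against 5.81% of all genes, and DESeq2 and limma-voom called none. The group median was 0.42, with 26 positive and 6 negative, against 0.00 over all genes. Adcyap1, with the 48.1 and 60.9 CPM in TG against 40.5 and 37.6 CPM in WT given above, had a log2 difference of 0.41 ± 0.18 (SE) and an adjusted p of 0.843. Cort had 0.257 and 0.568 CPM in TG against 0.195 and 0.123 CPM in WT, a log2 difference of 1.33 ± 0.59 and an adjusted p of 0.845. These values rest on 4 and 10 counts in TG against 7 and 3 counts in WT, too few for a firm fold. Avp had 0.321 and 7.84 CPM in TG against 0.0837 and 0.0410 CPM in WT, that is 3 counts and 1 count in WT, with an adjusted p of 0.659. Every TG value lay above every WT value for 9 of 32 genes, 28.1% against 17.7% of all genes, 1 of them Avp, which did not pass the filter without the TG libraries. It lay below for Gnrh1 alone, 3.12% against 21% of all genes. Cort, with the few counts given, is among the 9, as are Agrp and Nmb, which differed by little. Agrp had 16 counts in each TG library against 28 and 22 counts in WT female 3 and WT male 3, which are deeper libraries. Nmb had 3.15 and 2.61 CPM in TG against 2.54 CPM in each WT library. Without WT female 3, which leaves WT male 3 as the only WT library of the class, Crh was called lower in TG, with a log2 difference of -1.91 and an adjusted p of 0.0381. The lone library is then assumed to vary like the other groups.

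The genotype difference itself was compared between the hindbrain and olfactory classes. None of the 32 genes was called by edgeR's quasi-likelihood test with adjustment, against 0.0117% of all genes, 3 had an unadjusted p under 0.05, against 5.46% of all genes, and DESeq2 and limma-voom called none. The group median of the difference, hindbrain minus olfactory, was 0.40, with 27 positive and 5 negative, against -0.01 over all genes, with 8330 positive and 8821 negative. The libraries with hypothalamic peptides lie on opposite sides, TG female 4 in hindbrain TG and WT male 1 in olfactory WT. A high level of a gene in either of them raises this difference. Their part in the group median was not tested. Adcyap1 had the clearest values, with a difference of 0.87 ± 0.23 (SE) and an adjusted p of 0.682. Avp and Calcb also had unadjusted p-values under 0.05, and both rest on the low counts or the single libraries described above.

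Sex was compared with class and genotype as further terms, and no gene of the 32 was called, against 0.07% of all genes, nor did any have an unadjusted p under 0.05, against 5.52% of all genes. DESeq2 and limma-voom called none. The smallest p-values belonged to Adcyap1, with a log2 difference of female over male of 0.28 ± 0.15 (SE), Trh with -0.62 ± 0.34 and Gal with -0.52 ± 0.29, and all adjusted p-values were at least 0.884.

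The machinery that makes and carries these peptides was read from 4 lists. They hold 17 genes of peptide processing, 22 tested of 23 genes of dense-core vesicles, 48 tested of 54 neuropeptide receptors and 13 tested of 23 further neuropeptides. With the class term, edgeR's quasi-likelihood test with adjustment called none of them, against 0.496% of all genes. An unadjusted p under 0.05 was found for 1, 2, 2 and 1, against 8.4% of all genes. Median log2 differences were -0.02 for processing, 0.00 for vesicles, -0.07 for receptors and 0.10 for further neuropeptides. Of the processing genes, the convertase gene Pcsk6 had -0.21 ± 0.08 (SE) and the carboxypeptidase gene Cpd -0.10 ± 0.06. Of the vesicle genes, Rab2a, a small GTPase of vesicle formation, had -0.15 ± 0.05, and Syt4, a synaptotagmin of dense-core vesicles, had -0.23 ± 0.10. Of the receptor list, Ramp2, a partner of receptors of the calcitonin family, had 0.19 ± 0.07, and Npy5r, a neuropeptide Y receptor, had 0.27 ± 0.12. Of the further neuropeptides, Nucb2, the nesfatin precursor, had -0.27 ± 0.12, and Ucn2, a urocortin, had 0.59 ± 0.35.

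Sstr4, a receptor for somatostatin, is given as well because it had the smallest p of the receptor list within both classes, a choice made after its values were seen. In the olfactory class it had 10.4, 9.64 and 7.42 CPM in TG female 2, TG male 1 and TG male 3, against 14.4, 12.6, 13.4 and 14.01 CPM in WT female 1, WT female 4, WT male 1 and WT male 2. In the hindbrain class it had 2.76 and 3.18 CPM in TG, against 1.87 and 1.76 CPM in WT. The TG values lay below those of WT in the olfactory class and above them in the hindbrain class, with no overlap in either. By edgeR's quasi-likelihood test the log2 differences were -0.56 ± 0.12 (SE) with an adjusted p of 0.139 in the olfactory class and 0.68 ± 0.19 with an adjusted p of 0.581 in the hindbrain class. Their difference was 1.24 ± 0.22 with an adjusted p of 0.265. DESeq2 gave adjusted p-values of 0.0471, 0.662 and 0.0383 for these 3 comparisons, so the call depends on the tool.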

How the data were processed

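Per the labels, libraries were made from 250 ng of total RNA of bulk brain tissue with a stranded kit that depletes ribosomal RNA. The deposited values are whole-number counts per gene, which the authors made with STAR 2.7.5b, featureCounts and Subread on GRCm38, per the submitters' processing notes. Whether the counting used strand or fragments is not given in the sources used here.

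Of 27179 IDs, 25275 were named through RefSeq on GRCm38.p6 and 18 through GENCODE, and 1886 stayed unnamed. The filter filterByExpr, given the 4 groups of genotype and sex, kept 17151 IDs. Counts were scaled with TMM and tested with the quasi-likelihood test of edgeR 4.0.16 in R 4.3.3 (robust, Benjamini-Hochberg over all genes tested, threshold 0.05). Genotype was tested with sex, with sex and class, and within class from a model of class-by-genotype means with sex. Classes came from Ward clustering of centred means of 6 marker lists. Standard errors are the log2 difference divided by the square root of the F statistic. CPM values carry counting error only through the stated limit of 3 counts. The scripts were tested on simulated data.

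The genes, lists and tests were chosen with earlier results of these data known. For each test, called genes, or else the 3 with the smallest p, are named, and for each class the genes whose libraries do not overlap with the others. Of each of the 4 pathway lists, the 2 genes with the smallest p with the class term are named, and this limit to 1 test was set after the values were seen. Alternatives were DESeq2 1.42.0, limma-voom (limma 3.58.1), other scalings and filters, a replicate block, and leaving out libraries. Every pair of libraries differed beyond counting noise (chi-square per gene at least 6.03).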

Additional observations from a re-analysis of the deposited data

Results flagged for a closer look

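Each of the 37 genes was examined for a single library far from the rest of its group of 4 (TG female, WT female and WT male), by Dixon's ratio on log2 CPM. Of 111 such sets 19 were met, where chance gives about 1 in 20. The genes were read in the same libraries, so these are not separate events. In 18 of the 19, the library was the only one of its class within its group. That holds for TG female 2, TG female 3, WT female 2, WT female 3, WT male 3 and WT male 4. Many flags would thus fall on such a library in any case.

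In TG females, the cerebellum library TG female 3 had 0.891 CPM of Tac1 (33.3 to 58.5 in the others), 0.178 CPM of Cartpt (6.88 to 11.6) and 845 CPM of Chgb (432 to 473). TG female 2, the olfactory library of that group, had 0 CPM of Ghrh (0.0568 to 0.0643, or 1 count each) and 17.6 CPM of Nmb (2.61 to 3.15).

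In WT females, the cortex library WT female 2 had 28.0 CPM of Penk (236 to 337 in the others), 0 CPM of Gal (1.71 to 3.46), 245 CPM of Scg2 (701 to 783) and 688 CPM of Chgb (460 to 482). The hindbrain library WT female 3 had 2.15 CPM of Crhbp, the binding protein of Crh (10.96 to 13.4 in the others), 4.35 CPM of Tac2 (1.16 to 1.45), 4.21 CPM of Npff (2.53 to 2.65) and 306 CPM of Chga (136 to 155).

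In WT males, the hindbrain library WT male 3 had 0.123 CPM of Cort (1.91 to 2.61 in the others), 0.901 CPM of Agrp (1.35 to 1.43) and 26.3 CPM of Scg5 (19.9 to 20.3). The cortex library WT male 4 had 0.863 CPM of Tac2 (1.66 to 1.77) and 5.86 CPM of Trh (68.6 to 103). WT male 1 had 44.4 CPM of Oxt (0.246 to 0.370), and it is the one library of the 19 that shared its class with another of its group.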

How the results depend on the processing

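No peptide or granin gene was called in any of the settings tried, apart from Crh in the hindbrain class without WT female 3 (members called 0 to 1). Counts of all genes called moved more. Over all libraries the count was 19, with 40 by DESeq2, 7 without the hindbrain and cerebellum libraries, and 14 to 21 with each library left out. With the class term it was 85, with 175 by DESeq2, 41 without the hindbrain and cerebellum libraries, and 56 (without TG male 4) to 86. In the olfactory class it was 42, with 115 by DESeq2, and 18 (without TG female 2 or TG male 3) to 69 (without WT male 4). In the hindbrain class it was 12, with 36 by DESeq2, and 4 (without WT male 3 or TG female 4) to 15. For the difference between the classes it was 2, with 38 by DESeq2, 1 by limma-voom, and 0 (without WT female 3, WT male 3 or TG female 4) to 25 (without WT female 2 or WT male 4). For sex it was 12, with 7 without the class term and 9 to 15 with each library left out. Class patterns without overlap, 14 over hindbrain, cortex and olfactory classes, ran from 14 to 21 with each library left out, and came to 12 without genes that passed the filter only where they are high, a setting chosen after seeing the data. Counts in the olfactory class moved by over 1.5 times without any of its own libraries but WT male 1, and without TG female 1, TG female 4, WT female 2 or WT male 4. Those in the hindbrain class did so without TG female 1, TG female 4, TG male 1, TG male 3, WT female 1, WT female 4 or WT male 3. The cause was not tested. Values of single genes kept their direction and call in 724 cases, with Crh and Sstr4 as the exceptions.

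The log2 difference of Crh over all libraries was -0.61, and ran from -0.90 to 0.037 with each library left out, the positive value being that without WT male 3. Replicate numbers did not pair the libraries: over 21 pairs with the same number, correlations of deviations from group means ran from -0.61 to 0.91, with 7 over 0.1, and 4 of 15 libraries correlated best with their own number. With the replicate block, the counts were 53 with the class term, 2 in the olfactory class, 1 in the hindbrain class and 0 for the difference between classes. Genes at a few counts, such as Calcb, Nmu and Ucn outside the hindbrain class, cannot be compared at this depth.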
